A study of Mus musculus with 8 samples.

Results

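The accessibility of 9 genes of pericellular proteolysis and matrix remodelling was described in mouse melanoma lines: the plasminogen activators Plau and Plat, the receptor Plaur, the matrix metalloproteinases Mmp2, Mmp9 and Mmp14, the metalloproteinase inhibitors Timp2 and Timp3, and the lysyl oxidase Lox. Regions of the deposited count table were taken when they lay inside 1 of these genes in GRCm38, or within 50 kb of it with that gene as the nearest end of a protein-coding gene. This gave 102 of 148664 regions, 52 inside the genes and 50 outside. ATAC-seq, in which a transposase inserts sequencing adapters into open chromatin, had been run on 4 lines with 2 replicate libraries each and 50000 cells per reaction. Lines 112 and 113 (KO 112 and KO 113 beside values) are STAT3 knockouts (the Stat3Δ genotype of the growth protocol), and lines 119 and 73 (WT 119 and WT 73) are the wild-type controls (Stat3fl, the floxed allele). All 4 came from lymph node cells of mice with cutaneous melanoma. The labels call the lines pools in one field and clones in another, and the titles carry an unexplained number after the letter p (18, 44, 14 and 68 for lines 112, 113, 119 and 73). The Cre driver and the oncogene of the mice are not given in the sources used here.

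As background, urokinase (Plau) and tissue plasminogen activator (Plat) cleave plasminogen to plasmin, and the urokinase receptor (Plaur) holds urokinase at the cell surface. Plasmin degrades fibrin and can activate metalloproteinase zymogens. Mmp14 is a membrane-anchored collagenase that activates pro-Mmp2 together with Timp2, Mmp2 and Mmp9 are the gelatinases, and Timp3 is an inhibitor that stays bound to the matrix. Lox oxidises lysines of collagen and elastin so that the fibres crosslink. Melanoma cells use such enzymes when they cross basement membrane and stroma. Accessibility shows where chromatin is open and is not a measure of expression.

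Total counts were lowest in replicate 2 of line 112 (2697546) and highest in replicate 1 of line 119 (7464336), and the authors' peak calls numbered 20387 and 94906 in the same libraries. The cell type of the labels was checked against markers, taking the strongest region at an end of each gene. The melanocyte list had a region for 10 of 10 genes. Their summed level was 211 CPM (counts per 1000000, scaled by TMM) in KO 112, 372 in KO 113, 132 in WT 119 and 138 in WT 73. At least 1 library of the line had a peak over 9, 10, 8 and 2 of them. In line 73 the lineage factor Sox10 was at 3.09 CPM, against 17.6 to 27.9 in the other lines, and the pigment genes Dct, Mlana and Tyr were at 0.534, 0.256 and 1.86, while Mitf and Pmel were at 39.1 and 74.6. Fibroblast markers (7 of 7 genes with a region) summed to 50.0, 48.0, 43.4 and 138 CPM in lines 112, 113, 119 and 73. In line 73 the collagen gene Col1a2 was at 32.2 and the receptor gene Pdgfrb at 48.2, while Pdgfra and Lum were at 1.22 and 0.673. The remaining lists differed less between lines: leukocyte genes (5 of 8 with a region) summed to 29.9 to 42.9 CPM, keratinocyte genes (3 of 6) to 6.26 to 15.1, and Kdr, the endothelial gene with a region (1 of 5), lay at 3.82 to 7.38. Line 73 thus lacked a peak at 8 of the 10 melanocyte genes, although its summed level was close to that of line 119, and most results that rest on it are given with and without it. Chromosome Y was also divided by genotype: Ddx3y and Eif2s3y had 0 counts over the knockout libraries and 11.1 to 19.4 CPM in the wild-type libraries, so the presence of chromosome Y and the genotype cannot be told apart.

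Promoter sequences are shown for the 4 of 9 members that matched the RefSeq promoter table (GRCm38.p6), because the open region at the start behaved differently among them: that of Plaur and of Timp3 was lower in both knockout lines, and that of Mmp14 and of Timp2 was not divided by genotype. Each is the 250 bases before the annotated start, 5′ to 3′ on the strand of the gene. Capitals mark matches to the motifs searched. They lie at chr7:24462233-24462482 on the plus strand for Plaur, chr10:86300162-86300411 on the plus strand for Timp3, chr14:54431348-54431597 on the plus strand for Mmp14 and chr11:118355412-118355661 on the minus strand for Timp2.
Plaur: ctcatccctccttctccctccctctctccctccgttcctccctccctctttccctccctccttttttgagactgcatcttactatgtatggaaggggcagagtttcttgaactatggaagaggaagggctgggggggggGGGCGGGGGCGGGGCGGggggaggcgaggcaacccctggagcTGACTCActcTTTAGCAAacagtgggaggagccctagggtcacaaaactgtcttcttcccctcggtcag
Timp3: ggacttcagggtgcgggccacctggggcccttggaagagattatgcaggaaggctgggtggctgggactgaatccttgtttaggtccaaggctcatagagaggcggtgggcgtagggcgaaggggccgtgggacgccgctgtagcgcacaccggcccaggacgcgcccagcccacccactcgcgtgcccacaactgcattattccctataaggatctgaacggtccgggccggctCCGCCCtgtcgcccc
Mmp14: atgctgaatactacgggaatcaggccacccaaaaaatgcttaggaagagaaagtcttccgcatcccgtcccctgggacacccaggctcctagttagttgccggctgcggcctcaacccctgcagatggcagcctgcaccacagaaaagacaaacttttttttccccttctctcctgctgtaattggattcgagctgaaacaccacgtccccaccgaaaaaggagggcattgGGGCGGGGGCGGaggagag
Timp2: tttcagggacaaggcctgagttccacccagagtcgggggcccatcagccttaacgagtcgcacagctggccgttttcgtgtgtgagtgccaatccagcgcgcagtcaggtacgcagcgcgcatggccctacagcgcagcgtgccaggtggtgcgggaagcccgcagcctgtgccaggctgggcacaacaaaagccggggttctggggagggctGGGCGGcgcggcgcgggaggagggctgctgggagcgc

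The motifs were searched on both strands. All 4 promoters held the SP1 letters GGGCGG, 3 times in Plaur (with 2 matches sharing 1 base), 2 times in Mmp14 and 1 time each in Timp2 and, on the other strand, Timp3. Of 32851 promoters of the same length, 32.7% held them. Plaur alone of the 4 held the AP-1 letters TGANTCA, as TGACTCA 69 to 63 bases before the start, and the C/EBP letters TTGCNNAA, read on the other strand, at 59 to 52 bases before it. These occur in 6.75% and 9.56% of all promoters. The letters of the other 8 motifs were not in these windows: STAT TTCNNNGAA (7.02% of all promoters), TEAD GGAATG (12.6%), the E-boxes CATGTG (12.3%) and CACGTG (6.02%), SOX ACAATG (10.7%), RUNX TGTGGTT (4.4%), ETS CCGGAAG (6.91%) and NF-kB GGGNNTTCC (4.98%). A match describes letters and not a bound site. The GC content was 55.2% in Mmp14, 59.6% in Plaur, 65.6% in Timp3 and 68% in Timp2, against a median of 52.4% over all promoters.

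Across the 9 loci more regions were lower than higher in both knockout lines, and line 73 often stood above the other 3. The summed level of the 102 regions was 752 CPM in KO 112, 901 in KO 113, 925 in WT 119 and 1310 in WT 73. Lox covered the widest range of sums, with 15.4 to 26.8 CPM in the 4 knockout libraries, 50.5 and 53.9 in WT 119, and 159 and 166 in WT 73. For Plaur the knockout libraries summed to 32.2 to 52.0 and the wild-type libraries to 86.2 to 95.0. The sums of Mmp2, Mmp9, Mmp14, Plat and Plau overlapped between genotypes, and those of Timp2 and Timp3 were highest in line 73 (281 and 218, and 253 and 269 CPM).

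**Figure D1:**
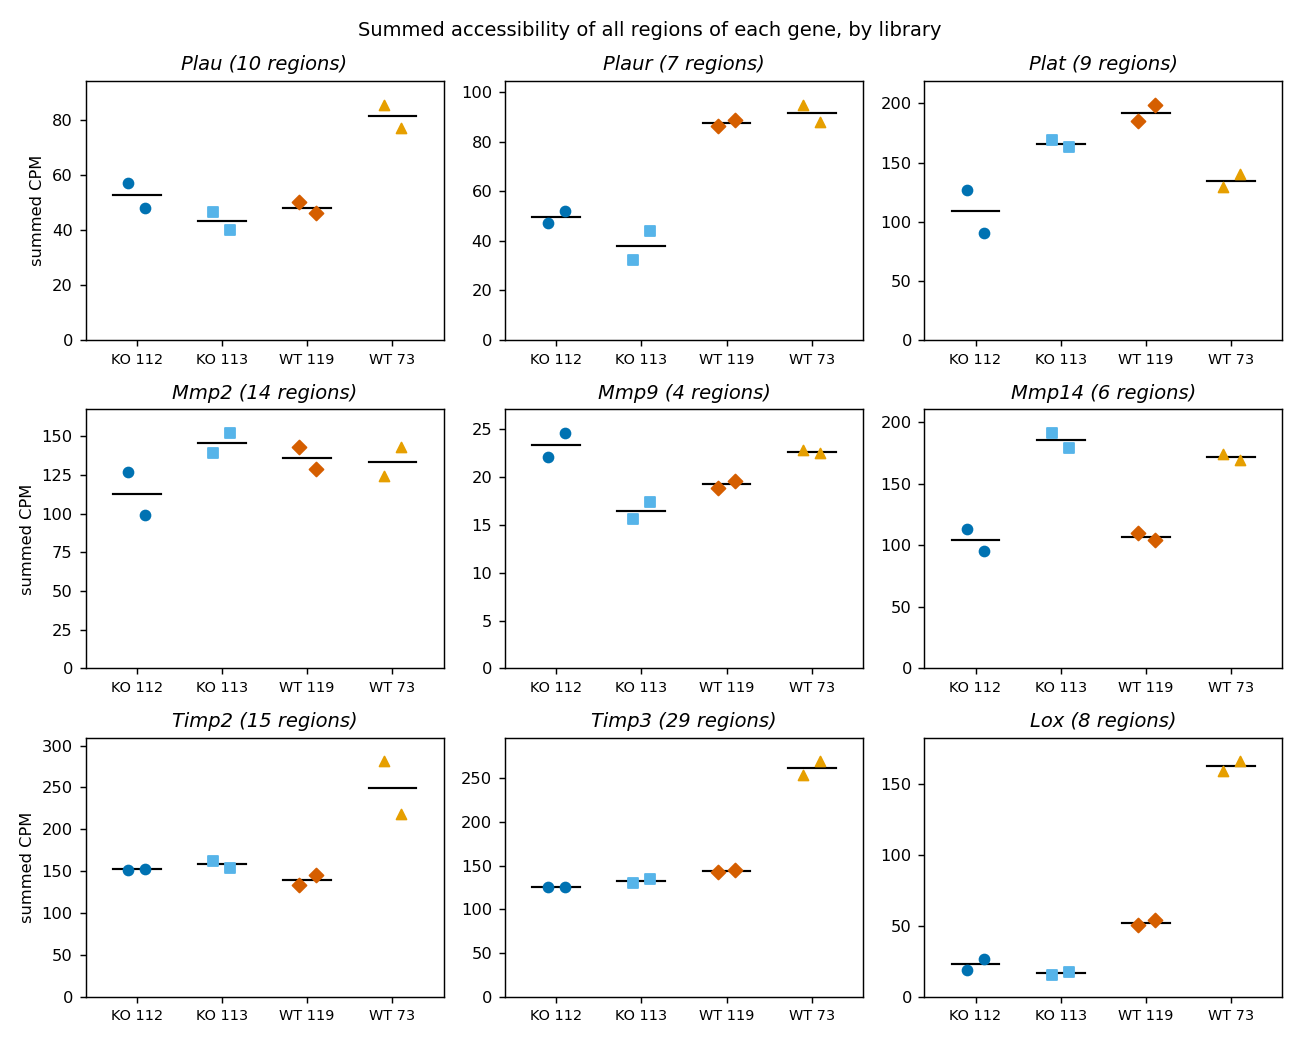
Summed CPM of all regions of each gene (vertical axis) in the 2 libraries of each line (points), with the line mean as a bar. Line 73 stands highest for Lox (159 and 166), Timp2, Timp3 and Plau, and both wild-type lines stand above both knockout lines for Plaur.

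Of the 102 regions, 100 passed the filter, which asked for enough counts in at least 2 lines. The other 2 lie at Timp3 and at Lox. The Lox region was dropped because only 1 line held enough counts, so regions open in a single line can be missing from the tests. In an F test of any difference among the 4 line means (edgeR quasi-likelihood, adjusted p under 0.05 by Benjamini-Hochberg over all regions tested), 84 of the 100 differed, beside 82.9% of all 140329 regions tested. With the line as the unit, 2 knockout against 2 wild-type lines, 0 of 100 passed (0.0% of all regions) and the smallest adjusted p of edgeR's test was 0.143. Before adjustment 19 had a p under 0.05 (16.9% of all regions), of which 17 were lower in the knockout lines (8.64% of all regions) and 2 higher (8.27%). DESeq2 on the same line sums called 7 of the 100 (4.98% of all regions), and limma-voom, which took the line as a random effect, called 0.

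A region counts as separated here when both knockout lines differed from both wild-type lines with 1 sign, 4 pair tests in all. By that rule 16 member regions were lower in the knockout lines, beside 7.41% of all regions, and 3 were higher, beside 7.64%. The lower ones were 5 regions of Timp3, 2 each of Plau, Plaur, Timp2 and Lox, and 1 each of Mmp2, Mmp14 and Plat. The higher ones were 2 regions of Timp3 and 1 of Mmp2, and Mmp9 had 0. The median log2 fold change of the 100 regions, knockout over wild type, was -0.48, with 65 below 0, beside a median of -0.09 over all regions, of which 53.5% were below 0. The labels do not say that replicates were separate cultures, so the pair tests measure only the spread between these libraries, and they compare lines and not genotypes.

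Without line 73, a fit chosen after its markers were seen, both knockout lines were lower than line 119 in 23 member regions (18.9% of all regions) and higher in 11 (15.3%). The genotype fit on line sums then compares the knockout lines with line 119 alone, which is assumed to vary as the knockout lines do. No count of calls is therefore given for it. Without replicate 1 of line 112 the separated regions numbered 11, beside 11.4% of all regions, with 10 lower (5.94%) and 1 higher (5.49%).

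**Figure D2:**
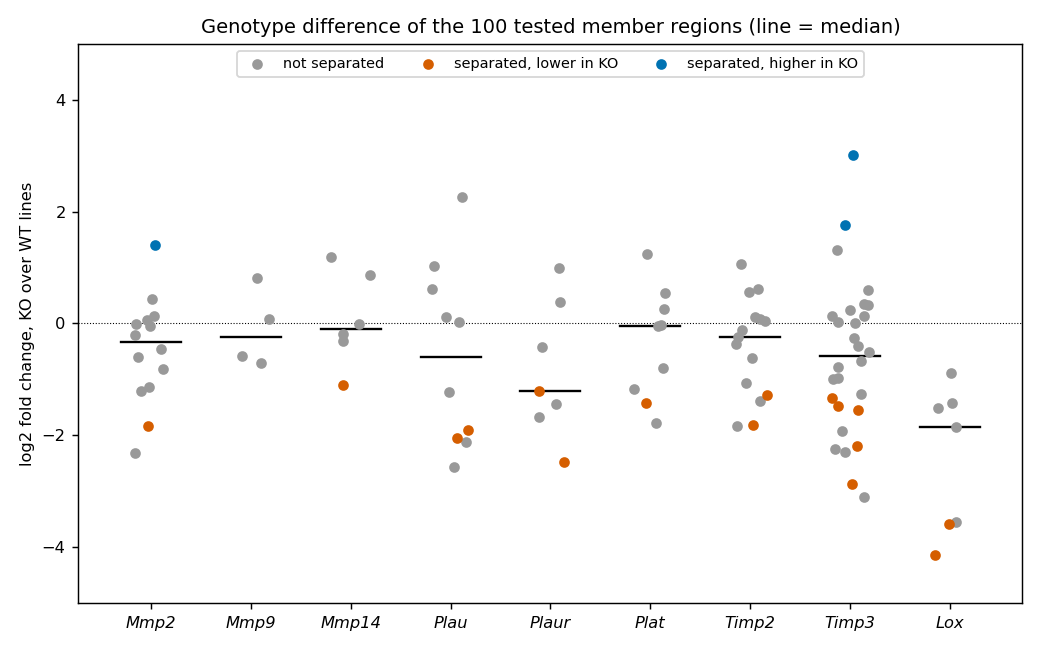
Log2 fold change, knockout over wild-type lines (vertical axis), of each of the 100 tested regions by gene, with the median of each gene as a bar. Separated regions are coloured: 16 lie below 0 and 3 above, and the median of Lox is the lowest at -1.85.

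The urokinase receptor gene Plaur had 2 regions that were lower in both knockout lines than in both wild-type lines. The first (chromosome 7, 24462194 to 24462980) holds the annotated start and the whole promoter printed above. Its CPM in replicates 1 and 2 were 11.6 and 10.8 in KO 112, 7.25 and 11.4 in KO 113, 22.0 and 21.4 in WT 119, and 23.3 and 26.9 in WT 73. The genotypes did not overlap, and lines of a genotype lay close together. Its log2 fold change was -1.20 (standard error, SE, 0.72), and the 4 knockout against wild-type pairs gave -0.95 to -1.43. It was separated in 17 of 17 settings that were tried, although the adjusted p with lines as units was 0.411 in edgeR.

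The second Plaur region (24470262 to 24470800), inside the gene 9325 bp from its lower end, had a flat level within each genotype. Its CPM were 3.49 and 3.69 in KO 112, 2.27 and 3.14 in KO 113, 17.6 and 17.6 in WT 119, and 17.9 and 16.1 in WT 73. All 4 knockout libraries were below 4 CPM and all 4 wild-type libraries above 16. The mean was 3.15 ± 0.627 CPM in the knockout lines and 17.3 ± 0.389 in the wild-type lines (SD of line means, n = 2 lines each), a log2 fold change of -2.47 (SE 0.84). With lines as units edgeR gave an adjusted p of 0.176, DESeq2 0.0251, and edgeR without line 73 0.0160. Not all of the gene followed this order: in the region next to the start (24461251 to 24462156) the line means were 13.4, 14.4, 25.0 and 12.0 CPM in lines 112, 113, 119 and 73. The annotated start used here, 24462483, lies inside the gene, whose lower end is at 24460937. The region 659 bp outside that end (24459313 to 24460278) was lower in every knockout library but not separated. Its line means were 8.22, 4.14, 11.7 and 21.1 CPM in the same lines.

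Plau, the gene of the ligand, was most open at its gene end in line 73. At that lower end (chromosome 14, 20836436 to 20837023) the CPM were 2.09 and 5.85 in KO 112, 1.81 and 1.94 in KO 113, 6.85 and 5.40 in WT 119, and 29.4 and 24.4 in WT 73. Line 73 stood above every other line, and lines 112 and 119 overlapped. Line 119 was lower than line 73 by a log2 fold change of -2.12 (SE 0.27, edgeR adjusted p 1.04e-09), and line 113 was lower than line 119 by -1.71 (SE 0.41, edgeR adjusted p 0.000356). For line 112 against line 119 the value was -0.72 (SE 0.37, edgeR adjusted p 0.106). Over genotypes the log2 fold change was -2.56 (edgeR adjusted p 0.196), and -1.20 without line 73.

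Outside Plau, beyond its lower end, 2 weaker regions were separated. In the first (20818774 to 20819747), 16915 bp from the gene, the knockout libraries held 0.906 to 3.39 CPM, line 119 held 7.37 and 6.75, and line 73 held 12.5 and 9.72. The second (20834017 to 20834517), 2145 bp away, held 0.453 to 1.23 CPM in the knockout libraries and 2.19 to 4.44 in the wild-type libraries. Their log2 fold changes were -2.05 and -1.90, with edgeR adjusted p of 0.256 and 0.279, and they were separated in 15 and 11 of 16 settings. Beyond the other end of the gene 2 regions, named after their values were seen, were higher in both knockout lines than in line 119. In the region from 20860968 to 20861468 the line means were 1.97, 3.95, 0.343 and 0.929 CPM in lines 112, 113, 119 and 73. Its log2 fold change without line 73 was 2.98. In the region from 20885057 to 20885957 they were 16.8, 12.6, 6.33 and 8.42 CPM. Neither was separated with line 73 included.

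At Plat, the tissue plasminogen activator gene, the region at the lower gene end was open in all 8 libraries and 1 internal region was separated. The gene-end region (chromosome 8, 22757373 to 22758479) held 24.2 and 22.8 CPM in KO 112, 39.9 and 34.8 in KO 113, 30.1 and 26.2 in WT 119, and 34.1 and 34.2 in WT 73. The genotypes overlapped, with a log2 fold change of -0.04 and a standard error of 0.62. The internal region (22763930 to 22764986), 6208 bp from that end, held 14 and 8.93 CPM in KO 112, 14.7 and 18.4 in KO 113, 37.2 and 42.9 in WT 119, and 34.6 and 38.1 in WT 73. Every knockout library was lower than every wild-type library, and the log2 fold change was -1.43 (SE 0.65, edgeR adjusted p 0.272). It was separated in 17 of 17 settings.

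Plat also had 2 regions that were higher in line 119 than in each other line, named here after their values were seen. The first (22779950 to 22780456) held 6.85 and 8.61 CPM in WT 119 and 0.256 to 2.79 in the other 6 libraries. The second (22742627 to 22743128), 14594 bp outside the gene, held 5.69 and 6.42 CPM in WT 119 and 0.227 to 1.79 elsewhere. Both had a peak call in 2 libraries, those of line 119.

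**Figure D3:**
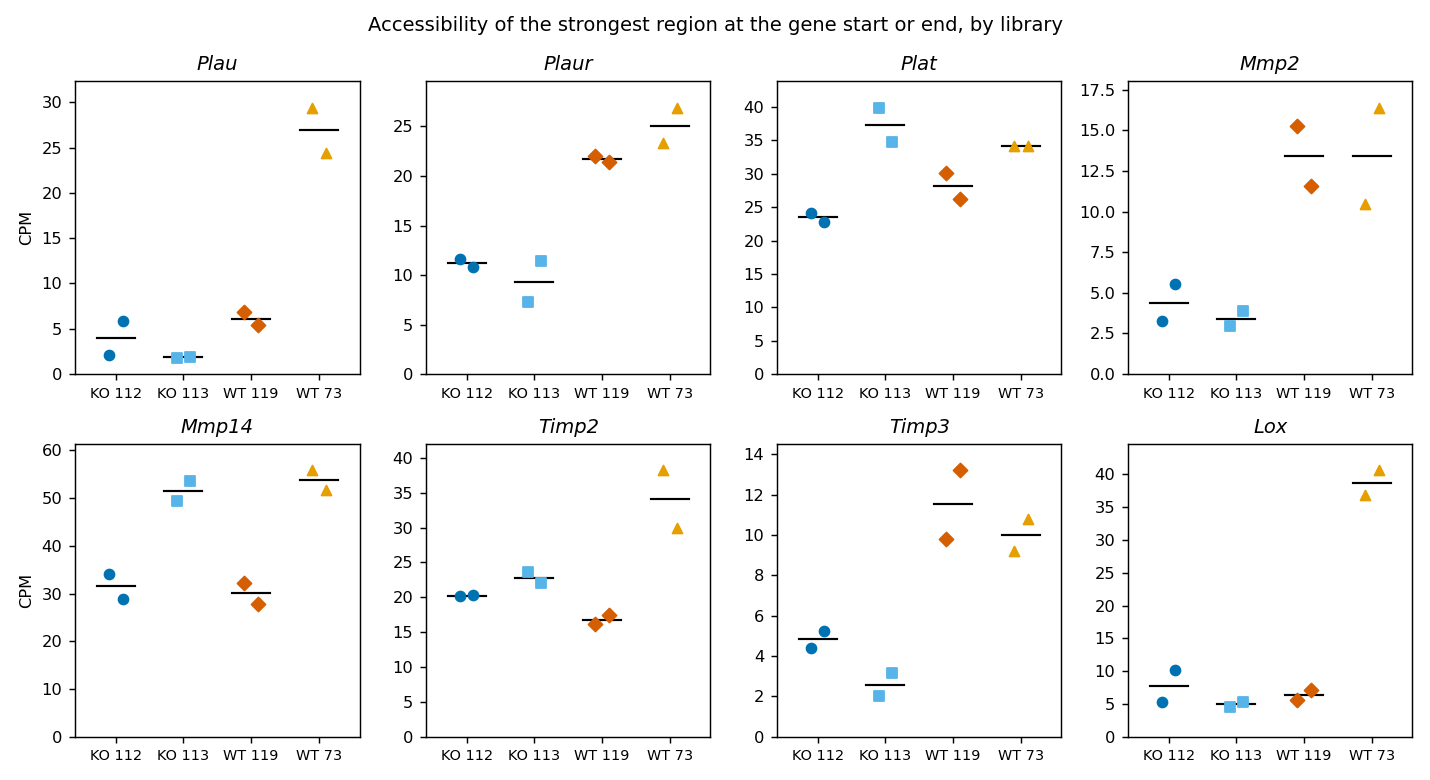
CPM (vertical axis) of the strongest region within 1 kb of the annotated start, or of a gene end where no strand was at hand, in the 2 libraries of each line, with the line mean as a bar. Mmp9 has no such region. Plaur, Mmp2 and Timp3 divide by genotype, Plau and Lox are high in line 73 alone, and Mmp14, Plat and Timp2 overlap between genotypes.

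Mmp14 was the metalloproteinase gene with a strongly open start in every library. That region (chromosome 14, 54431270 to 54432678), which holds the whole printed promoter, had 34.2 and 28.9 CPM in KO 112, 49.4 and 53.5 in KO 113, 32.2 and 27.9 in WT 119, and 55.8 and 51.7 in WT 73. Lines 113 and 73 were high and lines 112 and 119 low, so each genotype held 1 of each. Line 112 differed from line 113 by a log2 fold change of -0.70 (SE 0.18, edgeR adjusted p 0.00259) and line 119 from line 73 by -0.84 (SE 0.17, edgeR adjusted p 3.53e-05). Over genotypes the value was -0.01 (SE 0.59).

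Inside Mmp14, 2 neighbouring regions had different orders of lines. The region from 54435055 to 54435649 was separated: it held 7.68 and 6.46 CPM in KO 112, 13.4 and 13.1 in KO 113, 19.6 and 19.6 in WT 119, and 26.6 and 20.8 in WT 73. Its log2 fold change was -1.10 (SE 0.74, edgeR adjusted p 0.478), and it was separated in 10 of 17 settings. The next region (54435804 to 54436426) held 29.2 and 21.8 CPM in KO 113 and 3.03 to 9.29 in the other 6 libraries. There line 113 was higher than each other line, and line 112 differed from it by a log2 fold change of -2.77 (SE 0.32, edgeR adjusted p 1.87e-09).

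Mmp2, the gelatinase gene that Mmp14 acts on at the protein level, showed opposite differences at its ends. At the lower end (chromosome 8, 92827077 to 92827792) the CPM were 3.26 and 5.54 in KO 112, 2.95 and 3.87 in KO 113, 15.3 and 11.6 in WT 119, and 10.5 and 16.4 in WT 73. At the upper end (92853081 to 92853664) they were 11.6 and 5.54 in KO 112, 9.51 and 12.8 in KO 113, 2.97 and 4.05 in WT 119, and 3.07 and 5.28 in WT 73. Neither region overlapped between genotypes: the lower end was below the wild-type libraries in every knockout library, and the upper end above them. Their log2 fold changes were -1.83 (SE 0.83) and 1.40 (SE 0.84), with edgeR adjusted p of 0.277 and 0.409, and they were separated in 16 and 12 of 16 settings. The upper-end region lay under a peak in 1 of the 8 libraries, replicate 2 of line 113. The strongest Mmp2 region (92846602 to 92847789), inside the gene and under a peak in all 8 libraries, had line means of 28.1, 63.2, 45.7 and 45.7 CPM in lines 112, 113, 119 and 73, and was not separated.

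Mmp9, the other gelatinase gene, had 4 weak regions, and none lay within 1 kb of a gene end. The most variable of them (chromosome 2, 164947547 to 164948545, inside the gene) held 6.05 and 9.23 CPM in KO 112, 3.17 and 6.77 in KO 113, 5.43 and 5.40 in WT 119, and 12.0 and 14.2 in WT 73. Only line 73 stood apart, and the log2 fold change was -0.58 over genotypes and 0.14 without line 73.

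Timp2, the inhibitor that takes part in pro-Mmp2 activation, had a start region open in all 8 libraries. That region (chromosome 11, 118355061 to 118356128, with the whole printed promoter) held 20.2 and 20.3 CPM in KO 112, 23.6 and 22.0 in KO 113, 16.2 and 17.4 in WT 119, and 38.2 and 30.0 in WT 73. Line 73 was highest and line 119 lowest, so the knockout lines lay between the wild-type lines, and the log2 fold change was -0.24 with all lines and 0.33 without line 73. The region 5130 bp beyond that end (118360541 to 118361507) held 38.9 and 21.1 CPM in WT 73, 1.16 and 1.35 in WT 119, 5.82 and 6.77 in KO 112, and 2.72 and 2.18 in KO 113. Its log2 fold change over genotypes was -1.84 with line 73 and 1.74 without it.

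Inside Timp2, 2 regions were separated. The first (118324453 to 118325028) held 2.72 to 3.39 CPM in the knockout libraries, 7.63 and 8.78 in WT 119, and 15.9 and 9.72 in WT 73. The second (118337443 to 118338196), which also lies in Cep295nl, held 3.63 to 5.85 CPM in the knockout and 8.89 to 11.3 in the wild-type libraries. Their log2 fold changes were -1.81 and -1.28, with edgeR adjusted p of 0.293 and 0.454, and they were separated in 16 and 14 of 16 settings.

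Timp3, the matrix-bound inhibitor, lies inside Syn3, a synapsin gene, and all 29 of its regions do so as well, so a region assigned to Timp3 can belong to either gene. Its start region (chromosome 10, 86300363 to 86300877) covers the last 49 bases of the printed promoter. It held 4.42 and 5.23 CPM in KO 112, 2.04 and 3.14 in KO 113, 9.82 and 13.2 in WT 119, and 9.22 and 10.8 in WT 73. Every knockout library was lower than every wild-type library, and the log2 fold change was -1.55 (SE 0.85, edgeR adjusted p 0.367). It lay under a peak in 2 libraries, those of line 119. Next to it, the regions from 86301588 and from 86307052 were separated in the same direction, with log2 fold changes of -1.34 and -2.19. The start region was separated in 12 of the 16 settings that tested it, the region from 86301588 in 9 and the region from 86307052 in 16. The strongest Timp3 region (86339035 to 86340459), inside the gene and under a peak in all 8 libraries, was not separated. Its line means were 31.3, 43.7, 29.7 and 44.4 CPM in lines 112, 113, 119 and 73, and its log2 fold change was 0.03.

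Outside the gene the clearest separation at Timp3 lay 35079 bp beyond its lower end (86264687 to 86265333). There the CPM were 1.16 and 1.23 in KO 112, 2.95 and 1.69 in KO 113, 13.8 and 14 in WT 119, and 12.0 and 12.2 in WT 73. The wild-type libraries lay close together and the knockout libraries were all lower, with 4 to 13 counts each. The log2 fold change was -2.88 (SE 0.90), with an adjusted p of 0.157 in edgeR, 0.0150 in DESeq2 and 0.00357 in edgeR without line 73. A weaker region close to the 50 kb limit, 49245 bp away (86250446 to 86251167), was also separated, with 1.63 to 2.49 CPM in the knockout and 4.35 to 6.75 in the wild-type libraries, and it was separated in 11 of 16 settings.

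Another Timp3 region, 29587 bp out (86270070 to 86270825), was higher in line 73 than in each other line. It held 36.1 and 41.7 CPM there and 0.906 to 3.75 in the other 6 libraries, with a peak call in both libraries of line 73 and in replicate 1 of line 119, and its log2 fold change over genotypes was -3.10 with line 73 and -0.44 without it. Near the upper end of the gene the order turned. The region from 86348443 to 86349029 held 6.98 and 4.62 CPM in KO 112, 5.44 and 4.60 in KO 113, 0.775 and 0.507 in WT 119, and 0.768 and 0.556 in WT 73. This region lay under a peak in 1 of the 8 libraries, replicate 1 of line 112, and the wild-type libraries held 2 to 6 counts each. It was higher in both knockout lines, with a log2 fold change of 3.01 (SE 0.91), an adjusted p of 0.151 in edgeR and 0.0173 in edgeR without line 73. A second one (86344507 to 86345110) held 9.23 to 22.9 CPM in the knockout libraries and 1.54 to 6.08 in the wild-type libraries, and it was separated in 10 of 16 settings.

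**Figure D4:**
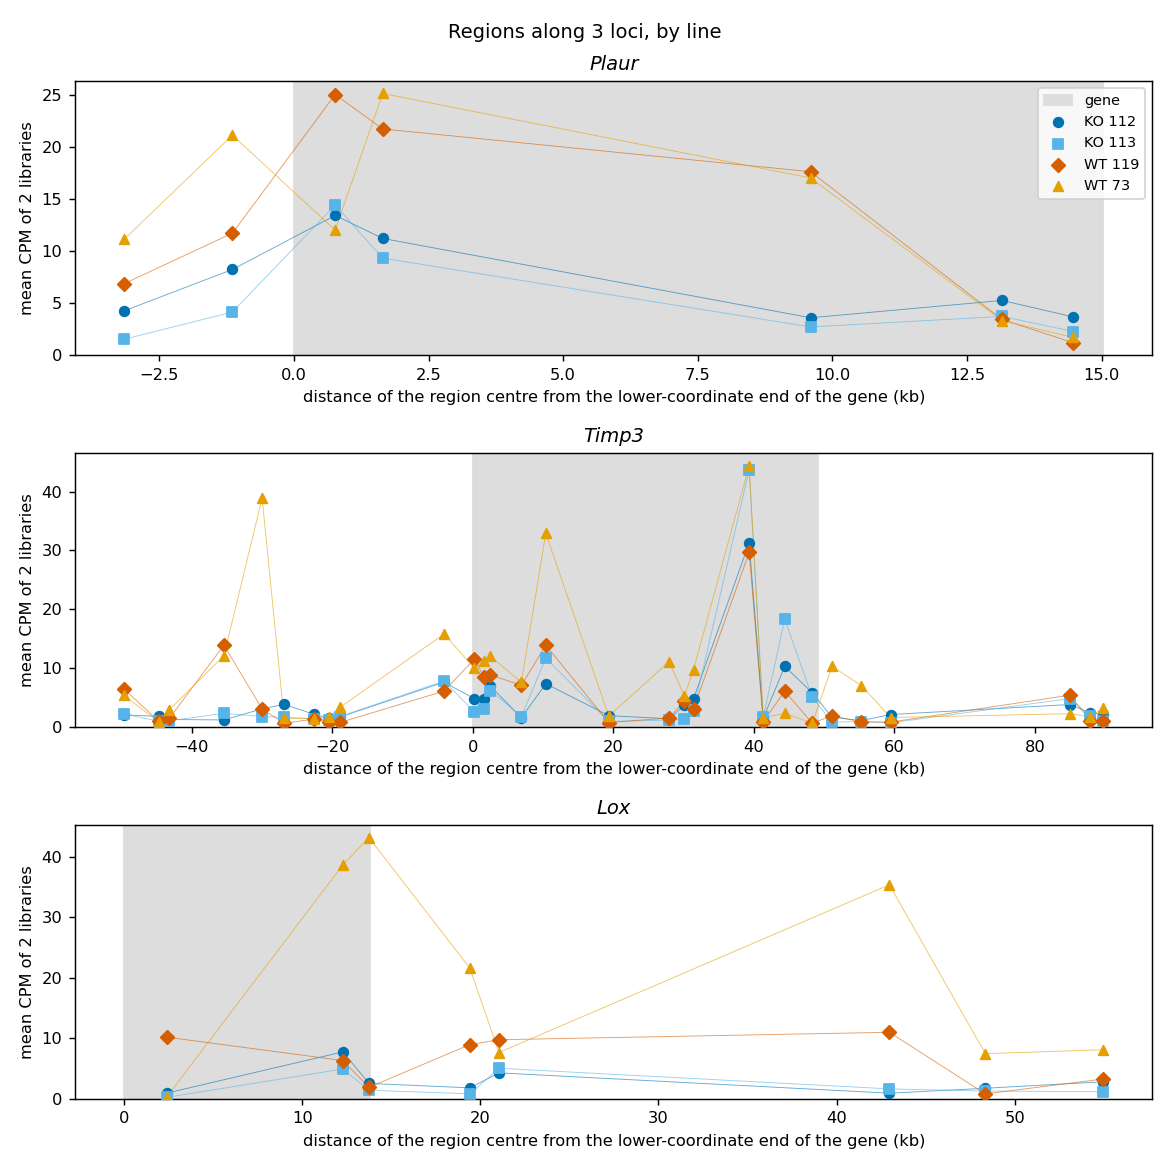
Mean CPM of the 2 libraries of each line (vertical axis) at every region of Plaur, Timp3 and Lox against the distance of the region centre from the lower-coordinate end of the gene in kb (the grey band is the gene). At Lox both wild-type lines stand above the knockout lines at the regions 5333 and 28885 bp beyond the gene, while the upper end of the gene is open in line 73 alone.

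Lox, on chromosome 18, was the member with the lowest median log2 fold change (-1.85), and 7 of its 7 tested regions had a value below 0. Both values lean on line 73, which was higher than each other line in 6 of the 7 (13.2% of all regions). Against line 119 alone the region from 52564138 to 52564689 was not lower, with log2 fold changes of 1.07 for line 112 and 0.66 for line 113. The upper end of the gene (52529472 to 52530140) held 1.40 and 3.69 CPM in KO 112, 1.36 and 1.45 in KO 113, 1.94 and 1.86 in WT 119, and 45.1 and 41.4 in WT 73. Line 73 stood alone and the other 3 lines overlapped. Line 119 was lower than line 73 by a log2 fold change of -4.49 (SE 0.30, edgeR adjusted p 1.88e-18). The neighbouring region inside the gene (52527446 to 52529247) had the same order, with 36.9 and 40.6 CPM in WT 73 and 4.53 to 10.2 in the other 6 libraries. Over genotypes the log2 fold changes of the upper-end and the neighbouring region were -3.55 and -1.85, and without line 73 they were -0.06 and -0.06.

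Beyond that end, 2 Lox regions were lower in the knockout lines than in both wild-type lines. At 5333 bp (52535200 to 52535750) the CPM were 1.16 and 2.46 in KO 112, 0.680 and 0.968 in KO 113, 9.31 and 8.61 in WT 119, and 21.0 and 22.2 in WT 73. At 28885 bp (52558752 to 52559296) they were 0.931 and 0.923 in KO 112, 1.59 and 1.69 in KO 113, 12.1 and 9.79 in WT 119, and 33.5 and 37.2 in WT 73. In both, line 73 was highest, line 119 intermediate and the knockout libraries near 1 CPM. The log2 fold changes were -3.58 (SE 0.96) and -4.15 (SE 0.95), both with an adjusted p of 0.143 in edgeR with lines as units. It equals the smallest over all regions, a value that the adjustment gives to regions of unequal p. Before adjustment the edgeR p were 0.0015 and 0.000388, so the tie does not place these 2 above all other regions. Without line 73 they were -2.87 and -3.13, with edgeR adjusted p of 0.00510 and 0.00221, and DESeq2 on all 4 lines gave 0.00387 and 0.000986.

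The Lox region that did not pass the filter (52518191 to 52518693, inside the gene) was open in line 119 alone. It had 74 and 64 counts in WT 119, 2 and 0 in WT 73, 4 and 3 in KO 112, and 1 and 1 in KO 113. The wild-type lines therefore differed from each other in which parts of Lox were open.

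Line 73 had the highest line mean in 50 of the 100 regions, beside 31.4% of all regions. The count was 22 for line 119 (26.3%), 13 for line 113 (26.5%) and 15 for line 112 (15.9%). The lowest mean was that of line 113 in 37 regions (26.8%), line 119 in 33 (29.5%), line 112 in 15 (12.9%) and line 73 in 15 (30.8%). In 27 it was higher than each of the other 3 lines (13.2% of all regions): 7 of Timp3, 6 each of Timp2 and Lox, 3 of Plau, 2 of Plaur and 1 each of Mmp2, Mmp9 and Plat. The matching counts were 5 for line 119 (9.86%), 2 for line 113 (4.49%) and 0 for line 112 (1.44%). Lower than each other line were 4 regions in line 73 (10.2%), 4 in WT 119 (4.33%), 3 in KO 113 (1.48%) and 1 in KO 112 (0.842%). Line 73 also had the highest fibroblast sum (138 CPM), with peaks at 5 of the 7 genes but not at Pdgfra or Lum. Its melanocyte sum (138) was near that of line 119 (132), with the highest levels of Mitf and Pmel and the lowest of Sox10, Dct and Pax3. The part of these markers in the 27 regions was not tested. Peak calls give a second view: 54.9% and 53.9% of the 102 regions lay under a peak in the libraries of line 73, beside 36.1% and 35.7% of all regions. In line 119 these shares were 67.6% and 59.8% (61.1% and 54.8% of all regions), and in the knockout libraries 13.7% to 30.4% (12.6% to 33.5%).

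Between pairs of lines, member regions were mostly lower in the knockout line when it was set against line 73. Line 112 differed from line 73 in 58 regions (49.9% of all regions), 48 lower and 10 higher (26.1% and 23.8%). Line 113 differed from it in 63 (52.2%), 48 lower and 15 higher (26.5% and 25.8%). Against line 119, line 112 differed in 45 (45.8%), 30 lower and 15 higher (23.5% and 22.2%), and line 113 in 55 (58.9%), 35 lower and 20 higher (28.8% and 30.2%). Lines 119 and 73 differed in 54 (56.9%), a total between the lowest and highest of these 4 pairs: line 119 was lower than line 73 in 39 and higher in 15 (29.4% and 27.5%). The knockout lines differed in 18 (23.8%), with line 112 lower than line 113 in 11 and higher in 7 (15.6% and 8.24%), and 5 of the 11 were at Mmp14. Over all regions the direction depended on the scaling. Line 112 was lower than line 113 in 21856 and higher in 11566 with TMM, but lower in 12126 and higher in 22079 with total counts. Against line 73 it was lower in 36631 and higher in 33403 with TMM, but lower in 26726 and higher in 42829 with total counts. These pairs share lines and are not independent.

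**Figure D5:**
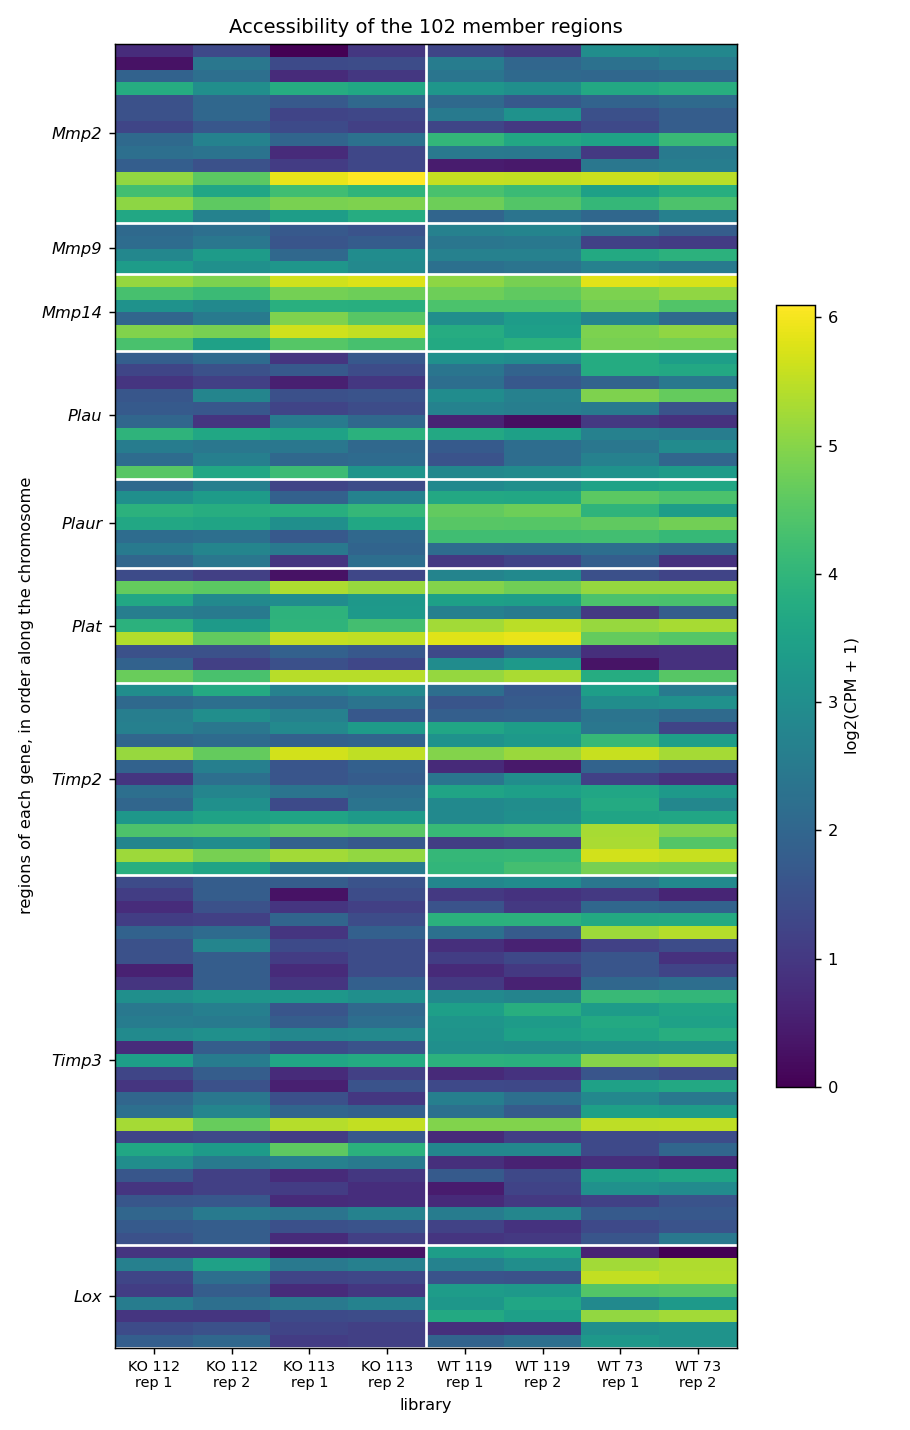
Log2(CPM + 1) of the 102 regions (rows, grouped by gene and in order along the chromosome) in the 8 libraries (columns). The white vertical line divides knockout from wild-type libraries, and most Lox rows are brightest in line 73. Over all tested regions, log2 CPM of the 2 replicates correlated least in line 112 (0.863), against 0.93 in line 113, 0.957 in line 119 and 0.929 in line 73.

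A list of 53 other genes of the same processes (further metalloproteinases, inhibitors, serpins, cathepsins, adamalysins, lysyl oxidases and surface receptors) held 414 regions, of which 403 were tested. Of these 403, 352 (a share of 87.3%) differed among the lines, beside 82.9% of all regions. With lines as units 0 passed in edgeR, and 82 (a share of 20.3%) had a p under 0.05 before adjustment, beside 16.9% of all regions. Separated and lower in the knockout lines were 48 (a share of 11.9%, beside 7.41% of all regions) in 25 genes. Separated and higher were 28 (a share of 6.95%, beside 7.64%) in 17 genes, with 10 genes in both counts. The median log2 fold change was -0.30, beside -0.09 over all regions.

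Of those genes, 10 had a separated region at a gene end, and the 8 with the smallest p among the lines are named. Lower in both knockout lines were Timp1, the soluble inhibitor gene (line means of 3.44, 3.14, 15.4 and 25.3 CPM in lines 112, 113, 119 and 73, log2 fold change -2.63, on chromosome X and also inside Syn1), Mmp19 (4.56, 3.63, 12.7 and 16.7 CPM, -1.85) and Furin, the gene of a convertase that cleaves pro-Mmp14 (6.64, 6.14, 15.8 and 16.9 CPM, -1.37). Higher in both were Ctsk, the cathepsin K gene (9.82, 15.5, 0.790 and 1.59 CPM, 3.42), Adamts5, an aggrecanase gene (7.47, 16, 3.58 and 0.918 CPM, 2.37), Hpse, the heparanase gene (15.5, 31.3, 4.64 and 5.59 CPM, 2.21), Timp4 (14.6, 5.16, 2.36 and 2.40 CPM, 2.04, also inside Syn2) and Mmp16 (23.9, 30.0, 10.3 and 14.5 CPM, 1.13). At Timp1, as on all of chromosome X, genotype and the presence of chromosome Y cannot be told apart. Inhibitor and protease genes were found in both directions. The smallest edgeR adjusted p among the 8 with lines as units was 0.145.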

How the data were processed

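ATAC-seq was measured in 8 libraries of 4 mouse lines. The deposited files are 1 table of raw counts per region and library, and peak lists that give each peak's score, its ratio over background (fold) and its −log10 p and q values. The peak values are the authors' and served only to tell which regions lay under a peak (bedtools 2.31.1, overlap of at least 1 bp). The submitters' processing notes name Bowtie2 2.2.4, Picard 1.118 and MACS2 2.1.1.20160309 and the builds mm10 and GRCm38, without settings. Whether reads, fragments or shifted cuts were counted is not given in the sources used here. Fragments over 1200 bp had been removed, per the labels. All 8 count columns matched a sample.

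Regions were assigned with a RefSeq gene table of GRCm38.p6, which holds no exons and no strand, so exon, intron and UTR are not stated. Coordinates are counted from 1. filterByExpr on line sums grouped by genotype (minimum count 10, minimum total 15) kept 140329 regions. Tests were two-sided edgeR 4.0.16 quasi-likelihood tests (R 4.3.3, TMM, robust), fitted on the whole table and adjusted by Benjamini-Hochberg with a threshold of 0.05: line sums by genotype, and 8 libraries with a mean per line for pairs of lines. Standard errors are the log2 fold change divided by the square root of F. The scripts were tested on simulated data.

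The members and gene lists were chosen with earlier results of these data known. Named regions were, for each member, the strongest region within 1 kb of its start (or gene end), the region with the smallest p among the lines and every separated region, and, of the other genes, at most 8 with a separated region at a gene end. Regions named beyond this rule were chosen after their values were seen. Alternatives were DESeq2 1.42.0 (its test or size factors), no scaling beyond library totals, an offset from weak regions in 10 Mb windows, other filters and assignment limits, libraries as units, limma-voom 3.58.1, a replicate block, and leaving out each library.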

Additional observations from a re-analysis of the deposited data

Results flagged for a closer look

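The 4 libraries of each genotype were examined at 29 named regions, 58 sets in all, and in 3 sets 1 library lay far from the others. Each time it was replicate 2 of line 112, the library with the fewest counts (2697546). At the lower end of Plau it held 5.85 CPM, against 1.81 to 2.09 in the other knockout libraries. At Lox it held 10.2 CPM in the region from 52527446, against 4.53 to 5.35, and 3.69 CPM in the region from 52529472, against 1.36 to 1.45. The sets share the same libraries and are not independent, so no rate by chance is given. In these 3 regions line 73 was the highest line with or without that library.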

How the results depend on the processing

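The genotype count of 0 became 7 with DESeq2 (4.98% of all regions) and 28 with libraries as units (22.7%), and ran from 0 to 1 when 1 library was left out. Requiring a mean count of 50 left fewer regions to test, 24137 against 140329 over the whole table. Its smaller counts can therefore not be read as fewer differences. It gave 8, 13, 16, 16, 18 and 17 calls for the pairs 112-113, 112-119, 112-73, 113-119, 113-73 and 119-73 (88 in all, against 293). There were 22 differing among lines and 7 separated (6 lower, 1 higher). Over the whole table this filter tested 24137 regions, of which 20171 differed, 2926 were separated lower and 1356 separated higher. The pairs then gave 7469, 11987, 13849, 14310, 14364 and 15172 calls over all regions. Regions inside genes only (52 regions) gave 11, 26, 34, 30, 34 and 24 (159 in all), 45 differing, 10 separated lower and 3 separated higher. That choice alters only which regions are members, so the shares over all regions stay those of the main fit. DESeq2 gave 9 for 112-113 and 12 separated (1 higher), beside 16472 and 12148 (5456 higher) of all 140329 regions. Without line 73 the rule of separation rests on the pair tests against line 119 alone and is easier to meet. It then held for 34 regions, 11 of them higher (15.3% of all regions) and 23 lower (18.9%). Leaving out 1 library gave 250 to 297 pair calls in all (6 to 29, 34 to 46, 45 to 59, 40 to 60, 50 to 65 and 43 to 56 by pair), 77 to 86 differing, and 11 to 26 separated (10 to 21 lower; 1 to 5 higher, with 1 also without line 119 replicate 1 and 5 without line 112 replicate 2). Over all regions the fits without 1 library tested 135790 to 139607, of which 102206 to 116422 differed. Separated were 15708 to 20490 (7869 to 10185 lower, 7668 to 10305 higher). Signs of the genotype fold changes of the named regions turned only near 0 or with line 73. The start region of Mmp14 gave 0.04 with total counts, 0.07 with the regional offset, 0.06 under peaks and with limma-voom, 0.42 without line 73, and -0.08 to 0.04 by library. The gene-end region of Plat gave 0.06 with the regional offset, 0.03 under peaks, 0.07 without line 73, and -0.11 to 0.02 by library. Without line 73, Mmp9 gave 0.14 and Timp2 0.33 (start) and 1.74. The cause was not tested. Replicate numbers did not pair the libraries (correlations of deviations -0.0367 to 0.00386), and with the replicate block 19 regions were separated, 84 differed and 291 pair calls were made. Replicate 2 of line 112 is the shallowest library, and levels near 1 CPM rest on under 10 counts.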
